A study of Mus musculus with 9 samples.

Results

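Erythroblasts of Dhh knockout (KO) mice were compared with those of Dhh heterozygous (HET) mice across the transcriptome. The comparison used 6 of the 9 libraries of the study, 3 per genotype, and 9543 of the 20368 genes in the deposited table. These were the genes with a value of at least 1 FPKM (a read measure scaled for gene length and library depth) in at least 3 of the 9 libraries. KO mice carried a null allele of Dhh on both chromosomes and HET mice on a single one, and 3 wildtype (WT) libraries served for the estimate of the spread. All mice were C57BL/6 and 4 weeks old, and in all groups RNA came from spleen cells sorted as positive for both CD71, the transferrin receptor, and Ter119, a surface antigen of the erythroid lineage. The sources used here do not say how the null allele was made. They do not say either whether each library came from a separate mouse, so the p-values speak only to differences among libraries, which may be technical.

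Dhh encodes Desert hedgehog, one of the secreted Hedgehog ligands of mammals. Such ligands bind the receptor Patched, which relieves the inhibition of Smoothened and lets Gli transcription factors activate their targets, Patched and Gli1 among them. In mice the spleen is a site of red cell production after birth. Its CD71+Ter119+ cells include nucleated precursors that make haemoglobin and condense their nuclei on the way to the reticulocyte. The comparison asks whether loss of the remaining Dhh allele shows in the transcripts of these cells.

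No gene passed the test. With limma and Benjamini-Hochberg adjustment over all tested genes, 0 of 9543 genes were called (0.0%; threshold 0.05, smallest adjusted value 0.9996). An unadjusted p under 0.05 was reached by 56 genes (0.587%), 43 of them higher in KO (0.451% of all tested genes) and 13 lower. The genes with the lowest p were Trappc2l, Kdm6a, Srrd and Hbq1b. In the fit that paired same-numbered libraries, 0 genes were called (0.0%, lowest adjusted p 0.418) and 251 had an unadjusted p below 0.05 (2.63%), 200 of them higher in KO and 51 lower. The median difference of all tested genes was 0.0037 on the log2 scale (KO minus HET, as for every difference given here). The 95% interval of a gene had a median half-width of 0.422 on the log2 scale, and for 86.4% of the genes it lay within a 2-fold change either way. The values of KO and HET did not overlap for 249 genes with KO higher (2.61%) and 179 with KO lower (1.88%). With 3 libraries against 3, an exact permutation test cannot give a p below 0.1. The count of 56 was 499 without KO replicate 2, 29 without KO replicate 3, 32 without HET replicate 2 and 106 without WT replicate 3, and 0 genes were called in each of these 4 fits.

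**Figure D1:**
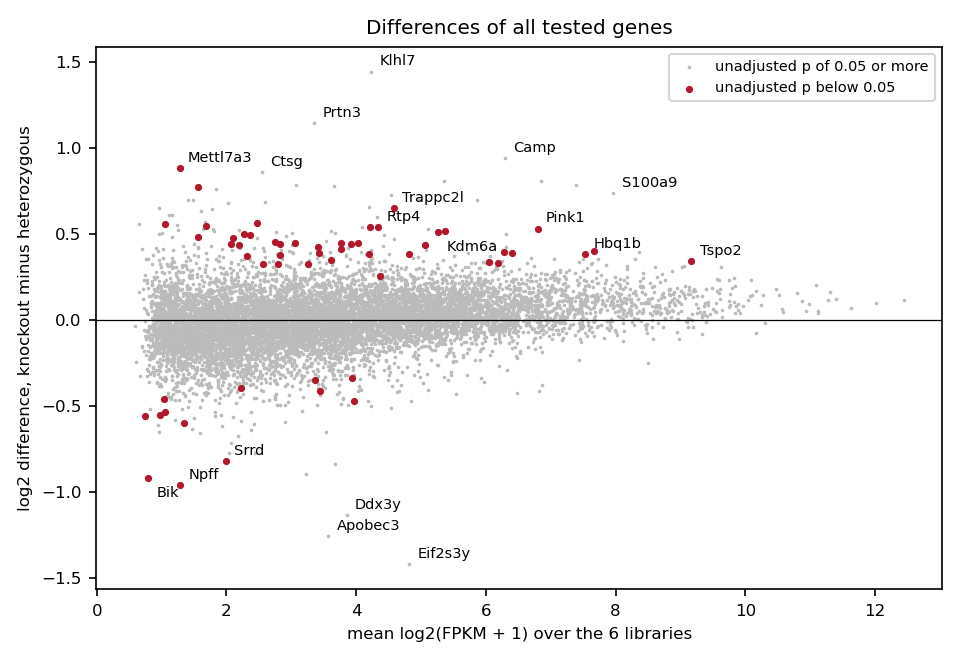
Log2 difference (KO minus HET, from limma on log2(FPKM + 1)) of the 9543 tested genes against their mean log2(FPKM + 1) over the 6 libraries; each point is 1 gene and red points have an unadjusted p below 0.05. The cloud is centred near 0, and only 5 genes lie at a difference of 1 or more in either direction.

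KO replicate 2 stood apart from the other libraries. The Y-linked gene Eif2s3y, which encodes a translation initiation factor subunit, was at 67.1, 0.599 and 46.4 FPKM in KO libraries, against 42.2, 40.0 and 54.9 in HET libraries. Ddx3y, a Y-linked RNA helicase gene, was at 26.6, 0.411 and 22.8 FPKM in KO libraries, against 19.8, 20.3 and 21.1 in HET libraries. KO replicate 2 was thus near 0 for both genes and the other 5 libraries were not, and it was also lowest for the Y-linked genes Uty (0.202 FPKM) and Kdm5d (0 FPKM). The labels give no sex, so this library may differ from the others in the sex of the mouse, which was not tested. It also held the most macrophage marker transcripts and was, with HET replicate 2, among the shallower libraries. Recovered reads were 13.34, 8.58 and 13.05 M (units of 1e6) in KO libraries, against 14.23, 7.05 and 13.85 M in HET libraries. Results are therefore given with and without KO replicate 2 where they rest on it.

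The largest differences rested on single libraries or on leukocyte genes. The 5 genes at or beyond a log2 difference of 1, named after their values were seen, were Klhl7, Prtn3, Ddx3y, Apobec3 and Eif2s3y. Klhl7, which encodes an adaptor of a ubiquitin ligase, was at 23.6, 26.9 and 41.9 FPKM in KO libraries, against 0.350, 28.2 and 36.2 in HET libraries. HET replicate 1 alone was low, and without it the difference of 1.44 became -0.09. Apobec3, which encodes a cytidine deaminase that restricts retroviruses, was at 6.85, 7.19 and 6.09 FPKM in KO libraries, against 103, 7.30 and 6.21 in HET libraries and 96.8, 6.06 and 9.40 in WT libraries. Only HET replicate 1 and WT replicate 1 were high. Prtn3, a protease gene of neutrophil granules, is described with the other neutrophil genes.

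Dhh itself (ENSMUSG00000023000, chromosome 15, 98891152 to 98898540, mm10) was listed at 0 FPKM in all KO libraries, against 0.0267, 0 and 0 in HET libraries and 0 in all WT libraries. Its level therefore does not check the genotype labels. Of the other ligands, Shh was listed at 0 in all 9 libraries and Ihh between 0 and 0.275 FPKM. Among the receptors and their partners, Smo, Cdon and Boc stayed under the threshold for testing, with Smo at 0.370, 0.505 and 0.290 FPKM in KO libraries, against 0.127, 0.517 and 0.297 in HET libraries. Of the transcription factors, Gli2 and Gli3 were listed at 0 in all 9 libraries, and Gli1 at 0.0201, 0.0289 and 0 FPKM in KO libraries, against 0.0173, 0 and 0.0358 in HET libraries. These levels correspond to a few reads at most for Gli1, so a change in it was not detectable at this depth.

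Of 36 listed genes of the Hedgehog pathway, 14 passed the filter, and 0 of them were called. KO was the higher group for 3 and the lower for 11, with a median log2 difference of -0.09, against 0.0037 for all tested genes. Ptch1, the receptor gene that is also a pathway target, was at 2.99, 2.34 and 1.52 FPKM in KO libraries, against 2.83, 3.41 and 1.90 in HET libraries, and the groups overlapped (log2 difference -0.18 ± 0.24 SE). Sufu, whose product holds Gli proteins back in the cytoplasm, was at 1.84, 2.83 and 1.40 FPKM in KO libraries, against 2.44, 3.25 and 2.28 in HET libraries. KO was the lower value in each same-numbered pair, yet the ranges overlapped (log2 difference -0.29 ± 0.21 SE, limma adjusted p 0.9996). Prkaca, the catalytic subunit of protein kinase A, which phosphorylates Gli proteins, was at 17.4, 17.8 and 17.3 FPKM in KO libraries, against 17.9, 20.2 and 19.5 in HET libraries. It was the only one of the 14 whose groups did not overlap, with a log2 difference of -0.13 ± 0.17 SE, smaller than its standard error. Of all tested genes, 1.88% did not overlap with KO lower and 2.61% with KO higher. KO was lower in all 3 pairs for 2 of the 14, Sufu and Prkaca, against 7.88% of all tested genes. It was higher in all 3 for 0 of them, against 12.2%.

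The remaining 11 tested members act downstream in the pathway and in other processes too. They were the kinase genes Csnk1a1, Csnk1e, Gsk3b, Dyrk2 and Ulk3, and the genes Spop, Cul3, Btrc and Fbxw11 of ubiquitin ligases that act on Gli proteins. The others were Arrb2, which encodes a beta-arrestin that binds Smoothened, and Iqce, a gene of the primary cilium. Their log2 differences lay between -0.27 and 0.18, and KO was higher for 3 and lower for 8. Standard errors ranged from 0.12 to 0.52, unadjusted p from 0.334 to 0.994 (limma), and the groups overlapped for all 11. The median of the 14 tested genes was -0.17 without KO replicate 2 and -0.02 without KO replicate 3.

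The sorted cells carried the transcripts that define the erythroid lineage at high levels in all libraries. Gata1, whose product directs the erythroid programme, was at 226, 171 and 234 FPKM in KO libraries, against 196, 190 and 206 in HET libraries. Klf1, which activates adult beta-globin, was at 384, 309 and 410 FPKM in KO libraries, against 331, 333 and 360 in HET libraries. KO and HET overlapped for both genes, and the log2 differences were 0.08 ± 0.16 and 0.10 ± 0.15 (SE). Tfrc, which encodes CD71 itself, differed by 0.11 ± 0.19, and Epor, the erythropoietin receptor gene, by 0.14 ± 0.17. Differences were 0.05 ± 0.33 for Hba-a1 and 0.12 ± 0.35 for Hbb-bs, the alpha and beta globin genes, 0.10 ± 0.42 for Alas2, which encodes the first enzyme of heme synthesis, and 0.07 ± 0.14 for Slc4a1, the gene of the band 3 anion exchanger. Kit, a receptor of early progenitors that falls during maturation, was at 1.12, 2.37 and 1.13 FPKM in KO libraries, against 0.671, 1.77 and 2.02 in HET libraries, a difference of 0.04 ± 0.28. Adult globins made up 2.66, 4.64 and 2.72% of the summed FPKM in KO libraries, against 2.53, 5.06 and 2.52% in HET libraries (exact permutation test of KO against HET, two-sided, p = 1.0), and 4.56, 4.14 and 2.86% in WT libraries. The 4 highest libraries (KO replicate 2, HET replicate 2 and WT replicates 1 and 2) were also the shallowest, with 7.05 to 9.66 M recovered reads, and the part of depth in this share was not tested.

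Among 36 lists of genes, 35 had at least 5 tested members. The median difference of a list had the same sign in all 3 same-numbered pairs for 11 of them: 8 above 0 (neutrophil, interferon, ribosomal, respiratory chain, proteasome, antioxidant, stress response, and T and natural killer cell genes) and 3 below (Hedgehog, cholesterol synthesis and B cell genes). The T and natural killer cell list had a median of 0.065, which became -0.194 without KO replicate 2. In 18 lists the pair of replicates 2 went the opposite way to both other pairs. Across all tested genes, KO was higher in all 3 pairs for 12.2% and lower in all 3 for 7.88%, which is the background for the counts that follow. The lists and their members were not chosen independently of these data, and their medians are descriptions.

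**Figure D2:**
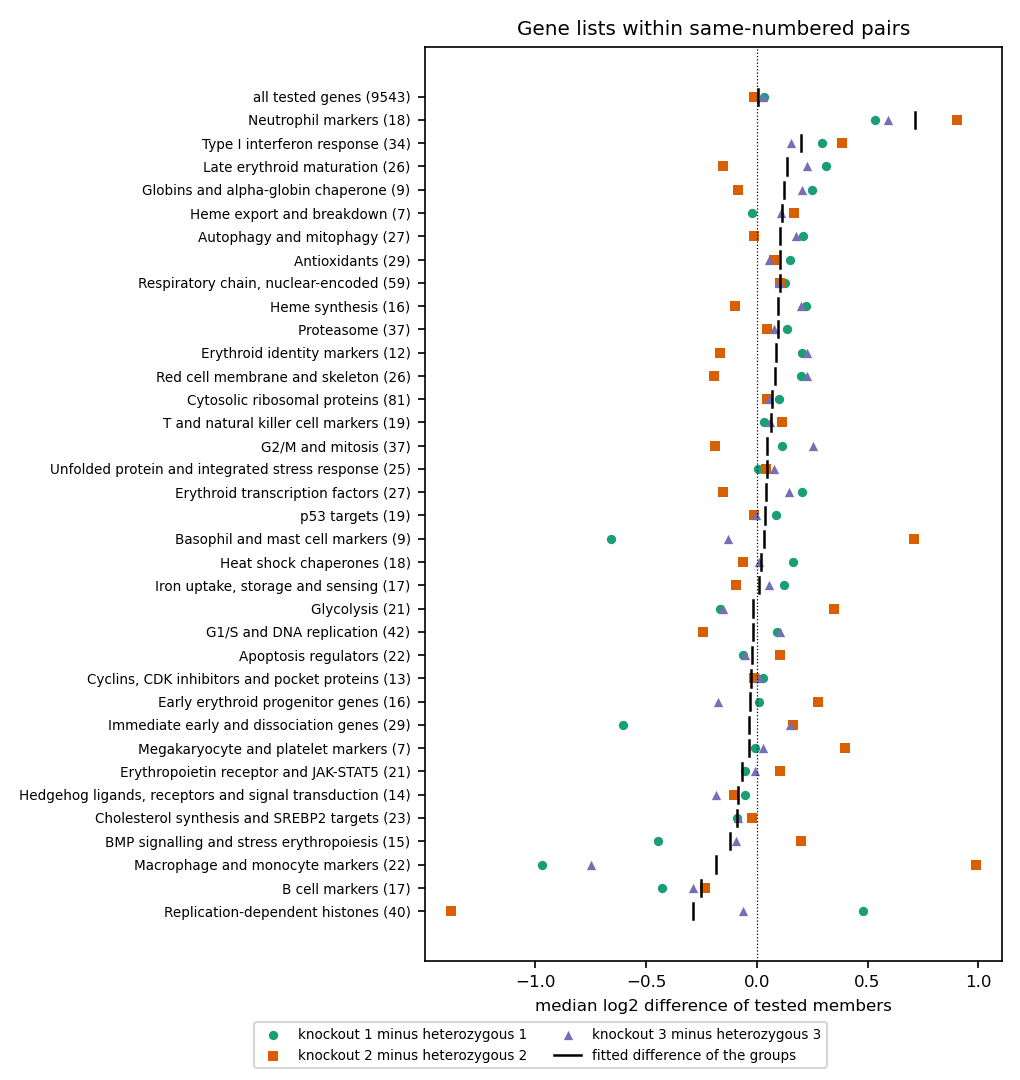
Median log2 difference (KO minus HET) of the tested members of each list, with the number tested in parentheses; symbols are the 3 same-numbered pairs and the black bar is the limma difference of the groups. Neutrophil markers lie to the right in every pair (0.53, 0.90 and 0.59), whereas macrophage markers lie at -0.97 and -0.75 in 2 pairs and at 0.99 in the pair of replicates 2.

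Neutrophil genes showed the largest median of any list. Granule proteins of neutrophils are made in staged waves, with serine proteases in the early precursors and lactoferrin, cathelicidin and neutrophilic granule protein later, and their transcripts mark neutrophil precursors and not erythroid cells. Of 18 listed genes all 18 were tested, 16 were higher in KO and 14 were higher in all 3 pairs (77.8%, against 12.2% of all tested genes). The median log2 difference was 0.71, against 0.0037 for all tested genes. In the paired fit 14 of the 18 had an unadjusted p below 0.05, against 2.63% of all tested genes, and 0 were called. In the unpaired limma fit 0 of the 18 had an unadjusted p below 0.05, against 0.587% of all tested genes. The values of KO and HET overlapped for all 18. In bulk RNA, more cells of a type and more RNA per cell cannot be told apart.

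Camp, which encodes the antimicrobial peptide cathelicidin, was at 43.9, 181 and 155 FPKM in KO libraries, against 25.4, 84.9 and 78.2 in HET libraries. Ngp, the neutrophilic granule protein gene, was at 61.9, 283 and 198 FPKM in KO libraries, against 36.0, 157 and 112 in HET libraries. Ltf, the lactoferrin gene, was at 22.2, 92.9 and 70.8 FPKM in KO libraries, against 13.3, 49.3 and 39.4 in HET libraries. All 3 genes were low in both replicates 1 and high in the others, so the ranges of KO and HET overlapped, while KO was the higher value in every pair. The log2 differences were 0.94 ± 0.78 for Camp, 0.81 ± 0.77 for Ngp and 0.81 ± 0.76 for Ltf (SE, limma adjusted p 0.9996 each). In the paired limma fit the adjusted p was 0.418 for Camp and Ngp and 0.439 for Ltf.

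The promoters of these 3 granule genes are shown because their transcripts moved together across the libraries. Each line gives the 250 bases upstream of the start site from RefSeq (GRCm38.p6), 5′ to 3′ on the gene's strand. Capitals mark matches to TTGCNNAA, a letter pattern of the C/EBP type, searched on both strands (TTNNGCAA on the other). C/EBP factors are known to drive granule genes in myeloid cells.
Ngp: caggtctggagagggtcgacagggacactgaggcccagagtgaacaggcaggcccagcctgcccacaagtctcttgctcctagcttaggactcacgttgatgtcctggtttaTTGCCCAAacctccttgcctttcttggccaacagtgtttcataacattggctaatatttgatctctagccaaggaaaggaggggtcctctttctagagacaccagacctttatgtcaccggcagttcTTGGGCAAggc
Ltf: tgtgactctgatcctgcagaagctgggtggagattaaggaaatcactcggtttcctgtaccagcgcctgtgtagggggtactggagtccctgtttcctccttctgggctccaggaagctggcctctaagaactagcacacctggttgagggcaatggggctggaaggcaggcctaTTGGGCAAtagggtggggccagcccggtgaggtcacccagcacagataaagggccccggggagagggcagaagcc
Camp: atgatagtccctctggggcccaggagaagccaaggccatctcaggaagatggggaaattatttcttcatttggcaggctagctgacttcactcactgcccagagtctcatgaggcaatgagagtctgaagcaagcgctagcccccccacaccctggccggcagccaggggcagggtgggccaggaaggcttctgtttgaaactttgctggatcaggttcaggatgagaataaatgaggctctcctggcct
Ngp (plus strand, chr9:110419558-110419807) held 2 matches, which start 11 and 138 bases before the start site, and Ltf (plus strand, chr9:111019042-111019291) held 1, which starts 75 bases before it. Camp (minus strand, chr9:109849457-109849706) held 0, as did the window of Prtn3, not shown, and these letters occurred in 9.56% of 32851 promoter windows of the same length. The GENCODE bounds of these genes start at 110419747 for Ngp and 111019271 for Ltf and end at 109849617 for Camp. Part of each window shown thus lies inside the annotated gene, as does the nearer match of Ngp. A match is a description of the letters and does not show binding.

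Genes of calprotectin and of the early granules also had KO as the higher value in every pair. S100a9, a calprotectin subunit and the most abundant of the 18, was at 158, 486 and 431 FPKM in KO libraries, against 101, 259 and 271 in HET libraries (0.74 ± 0.64, paired limma adjusted p 0.542). Prtn3, which encodes proteinase 3, was at 5.07, 21.8 and 24.4 FPKM in KO libraries, against 2.34, 7.62 and 10.3 in HET libraries. It had the largest difference of the list, 1.14 ± 0.72 (paired limma adjusted p 0.439). Elane, the neutrophil elastase gene, was at 4.00, 27.5 and 30.8 FPKM in KO libraries, against 2.40, 13.0 and 17.7 in HET libraries, and differed by 0.78 ± 0.91. Differences were 0.86 for Ctsg (cathepsin G), 0.79 for S100a8 (the other calprotectin subunit), 0.70 for Lcn2 (lipocalin 2) and 0.66 for Mpo (myeloperoxidase). The receptors of the list did not go along: Csf3r, the receptor of the growth factor G-CSF, differed by -0.21 ± 0.50 and Cxcr2, a chemokine receptor, by -0.02 ± 0.34.

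**Figure D3:**
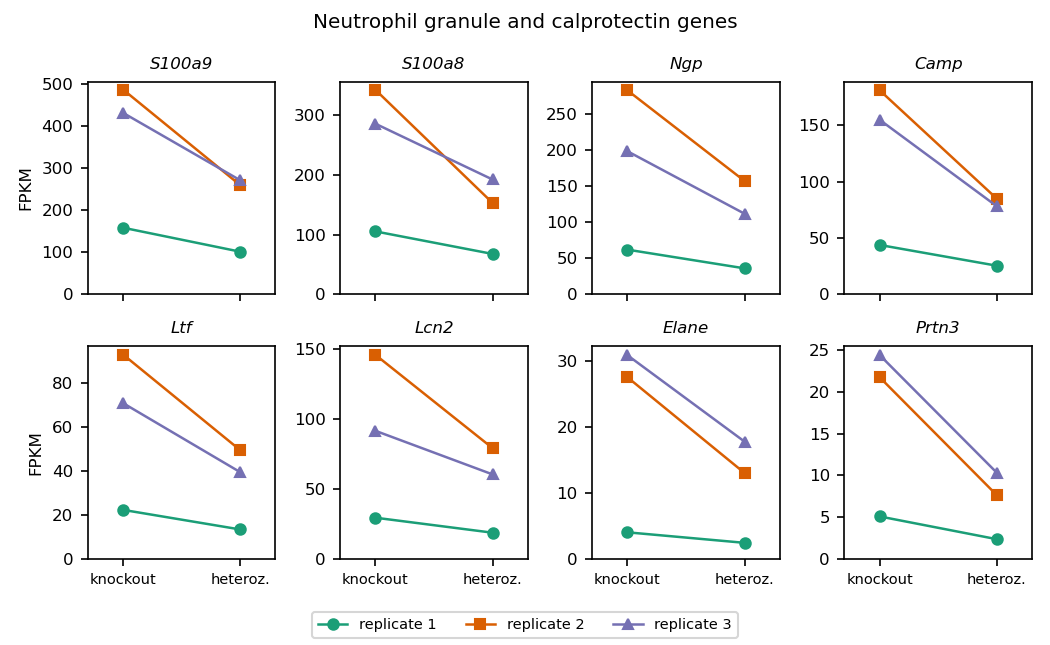
FPKM of 8 neutrophil genes in KO libraries (left of each panel) and HET libraries (right); a line joins the libraries that carry the same replicate number, and each vertical axis starts at 0. Every line runs downwards to HET, while replicate 1 lies lowest in both genotypes, as for Camp at 43.9 in KO and 25.4 in HET.

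Summed over the 18 neutrophil genes, FPKM were 485, 1784 and 1449 in KO libraries, against 314, 911 and 911 in HET libraries and 1270, 1903 and 377 in WT libraries. The WT libraries alone thus spanned a range as wide as that of the other 6. The median difference of the list was 0.35 without KO replicate 2, 0.15 without HET replicate 1, 1.33 without KO replicate 1, and 0.59 without both replicates 2. Within KO, the sums of macrophage and B cell markers had the same order of libraries as that of neutrophil markers, but KO exceeded HET only in the pair of replicates 2. The summed macrophage markers were at 916, 2404 and 1186 FPKM in KO libraries, against 1497, 1363 and 1564 in HET libraries. Those of B cell markers were at 391, 959 and 735 FPKM in KO libraries, against 688, 737 and 895 in HET libraries. In the pair of replicates 2, Cd74 alone was at 509 FPKM in KO and 361 in HET. The median log2 difference of the tested B cell genes in that pair was -0.23, opposite in direction to the sum. The part of admixed leukocytes in these differences was not tested.

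B cell genes went the other way. Of 22 listed genes 17 were tested, 16 were lower in KO and 8 were lower in all 3 pairs (47.1%, against 7.88% of all tested genes), with a median of -0.25 and 0 called. Cd79a, a subunit of the B cell receptor, was at 12.5, 16.3 and 5.56 FPKM in KO libraries, against 17.4, 24.4 and 8.05 in HET libraries. Replicate 3 was the lowest library of each genotype and the groups overlapped (log2 difference -0.49 ± 1.01, SE). Differences were -0.46 for Fcmr, an immunoglobulin M receptor gene, and -0.31 for Ms4a1, which encodes CD20. Cd74, the class II chaperone that macrophages also express, was the most abundant of the list, at 182, 509 and 385 FPKM in KO libraries, against 360, 361 and 462 in HET libraries. Its difference was -0.25 ± 0.82 (SE), with KO lower in the pairs of replicates 1 and 3 and higher in that of replicates 2. Without KO replicate 2 the median of the list was -0.55. It was -0.08 without KO replicate 3, -0.10 without HET replicate 2 and -0.50 without HET replicate 3.

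Macrophage genes split by pair. Of 22 tested genes, 18 were lower in KO and 4 higher, but only 1 had KO higher in all 3 pairs and 0 had KO lower in all 3. C1qa, a complement subunit made by tissue macrophages, was at 53.1, 198 and 51.1 FPKM in KO libraries, against 105, 88.6 and 92.5 in HET libraries. KO replicate 2 was above every HET library and the other 2 KO libraries were below them. The median of the list was -0.18 with all libraries and -0.72 without KO replicate 2. It was 0.14 without KO replicate 1 and 0.06 without KO replicate 3, so its direction depended on single KO libraries.

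Genes of the type I interferon response had the second highest median of the lists. Histone genes (-0.29) and B cell genes (-0.25) had medians further from 0, with KO lower. Interferon-induced genes are switched on through short promoter elements. Of 38 listed genes 34 were tested, 28 were higher in KO and 21 were higher in all 3 pairs (61.8%, against 12.2% of all tested genes). For 10 of the 34 the groups did not overlap, all with KO higher, against 2.61% of all tested genes. The median log2 difference was 0.20 (0.205 without KO replicate 2), 0 genes were called, and 13 had an unadjusted p below 0.05 in the paired fit, against 2.63% of all tested genes. In the unpaired limma fit 2 of the 34 had an unadjusted p below 0.05, against 0.587% of all tested genes. The 6 that were lower in KO included Zbp1, a sensor of unusual nucleic acids, at -0.34.

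Ifi27, a mitochondrial interferon-induced gene, was at 224, 245 and 231 FPKM in KO libraries, against 169, 179 and 181 in HET libraries. Rtp4, which encodes a chaperone of membrane receptors, was at 22.8, 24.9 and 22.4 FPKM in KO libraries, against 17.3, 12.7 and 17.8 in HET libraries. Usp18, which removes Isg15 from proteins and damps interferon signalling, was at 102, 67.5 and 70.9 FPKM in KO libraries, against 64.3, 49.9 and 59.6 in HET libraries. Every KO value of these 3 genes was above every HET value. The log2 differences were 0.40 ± 0.16 for Ifi27, 0.54 ± 0.22 for Rtp4 and 0.45 ± 0.24 for Usp18 (SE, limma adjusted p 0.9996 each). For Usp18, WT libraries were at 69.7, 84.7 and 45.8 FPKM. WT replicates 1 and 2 lay within the KO range, and WT replicate 3 lay below every HET library. For Ifi27, WT libraries were at 199, 293 and 194 FPKM, above every HET library. Those of Rtp4, at 17.65, 31.3 and 18.6 FPKM, overlapped HET.

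Other members of the list varied in how far the groups lay apart. Irf7, which amplifies the response, was at 305, 466 and 311 FPKM in KO libraries, against 226, 352 and 265 in HET libraries. It was higher in KO within each pair and highest in both replicates 2. Rsad2, the antiviral gene viperin and the most abundant of the list, was at 603, 747 and 552 FPKM in KO libraries, against 435, 782 and 503 in HET libraries, with overlap and a difference of 0.18 ± 0.28. Oasl2, an oligoadenylate synthetase-like gene, was at 78.2, 100 and 97.1 FPKM in KO libraries, against 75.4, 60.3 and 68.3 in HET libraries. The KO values lay above the HET values here too, though by little in the pair of replicates 1. WT libraries, at 50.5, 140 and 105 FPKM for Oasl2, lay on both sides of KO and HET. Summed over the listed interferon genes, FPKM were 2728, 3183 and 2553 in KO libraries, against 2093, 2713 and 2210 in HET libraries. The WT sums, at 2864, 3737 and 2065, reached beyond both ends of KO and HET.

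**Figure D4:**
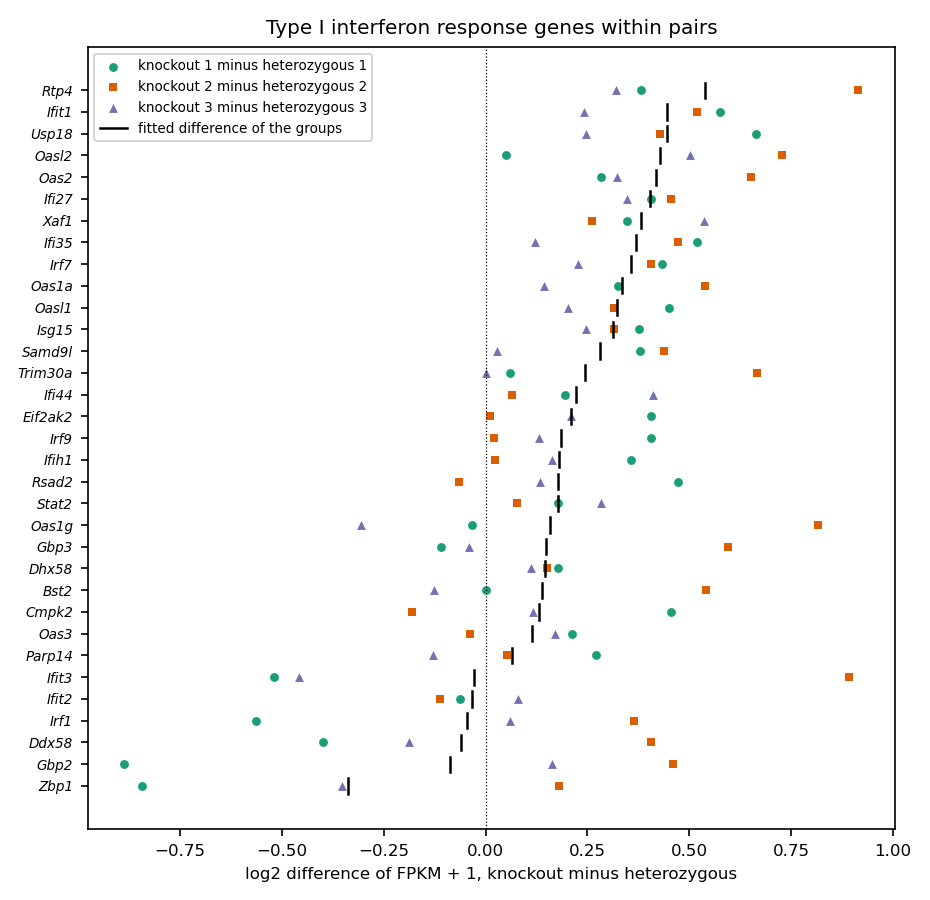
Log2 difference of FPKM + 1 (KO minus HET) of the tested interferon response genes, with 1 of the 34 not shown, within each same-numbered pair (symbols), with the limma difference of the groups as a black bar. Most genes shown have all 3 symbols to the right of 0, and Rtp4 has the largest difference of the groups (0.54).

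Isg15, a ubiquitin-like modifier that is a standard reporter of interferon exposure, was at 530, 762 and 510 FPKM in KO libraries, against 407, 612 and 429 in HET libraries (0.31 ± 0.31). KO was the higher value in each pair, and the ranges overlapped because both replicates 2 were high. Its promoter is shown because, of the 4 searched, it alone held matches to a letter pattern of interferon elements. The line gives the 250 bases upstream of its start site (RefSeq, GRCm38.p6, minus strand, chr4:156200819-156201068), with matches to GAAANNGAA on either strand (TTCNNTTTC on the other) in capitals.
Isg15: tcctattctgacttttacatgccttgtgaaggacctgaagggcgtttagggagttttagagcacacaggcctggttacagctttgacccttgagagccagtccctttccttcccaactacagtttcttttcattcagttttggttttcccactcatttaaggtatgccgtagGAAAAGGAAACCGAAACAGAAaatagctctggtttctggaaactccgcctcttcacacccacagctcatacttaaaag
The 3 matches overlap one another and start 66 to 78 bases before the start site. The pattern occurred in 7.13% of the 32851 windows, and the windows of Irf7, Oasl2 and Xaf1, the other members of the list searched, held 0 matches. These matches too describe letters and do not show binding. The GATA pattern AGATAA, searched in the same way upstream of Hbq1b and Tspo2, had 0 matches there and occurred in 9.99% of the windows.

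Among the 20 genes with the lowest unadjusted p, 16 were higher and 4 lower in KO, with p between 0.00216 and 0.0241. Trappc2l, a subunit of a complex that tethers transport vesicles, was at 24.6, 35.2 and 28.1 FPKM in KO libraries, against 18.5, 16.0 and 19.98 in HET libraries. Kdm6a, an X-linked gene for a demethylase of histone H3 lysine 27, was at 44.6, 47.5 and 42.4 FPKM in KO libraries, against 33.7, 27.5 and 32.4 in HET libraries. Hbq1b, a theta globin gene of the alpha cluster, was at 208, 206 and 216 FPKM in KO libraries, against 160, 164 and 158 in HET libraries and 227, 238 and 197 in WT libraries. Each KO value of these genes exceeded each HET value, and for Hbq1b the WT libraries lay above HET too. So did those of Trappc2l, at 27.2, 23.4 and 24.9 FPKM, whereas those of Kdm6a, at 36.9, 31.65 and 35.65, overlapped HET. KO replicate 2, near 0 for Y-linked genes, was the highest library for the X-linked Kdm6a, whose difference was 0.47 without it. The log2 differences were 0.65 ± 0.15 for Trappc2l, 0.51 ± 0.12 for Kdm6a and 0.38 ± 0.11 for Hbq1b (SE, limma adjusted p 0.9996 each).

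The 4 genes of the 20 that were lower in KO were expressed at low to moderate levels. Srrd, which encodes a protein with an SRR1 domain, was at 1.86, 2.57 and 1.59 FPKM in KO libraries, against 4.95, 4.94 and 3.12 in HET libraries. Npff, the neuropeptide FF precursor gene, was at 1.32, 0.712 and 0.345 FPKM in KO libraries, against 1.70, 4.00 and 1.91 in HET libraries. Ift74, which encodes a subunit of the transport trains of cilia, was at 0.766, 1.00 and 0.473 FPKM in KO libraries, against 1.61, 1.69 and 1.24 in HET libraries. None of the 3 overlapped between KO and HET, and their differences were -0.82 ± 0.21, -0.96 ± 0.28 and -0.53 ± 0.19 (SE). Zfpl1, a gene of the Golgi apparatus, was the fourth, at -0.34 ± 0.12.

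The other 13 of the 16 higher genes had log2 differences between 0.33 and 0.56. They included Snrnp25 of the minor spliceosome (0.33), Pet100 of cytochrome oxidase assembly (0.44), the Mediator subunit Med21 (0.52), Supt3 of the SAGA coactivator (0.44), Commd9 of an endosomal sorting complex (0.47), the GTPase gene Rab40c (0.50) and Adck5, an atypical kinase gene (0.45). Trim12a, a relative of the retroviral restriction factor Trim5, differed by 0.44 and Cklf, a chemokine-like factor, by 0.55. Rsph3a of the ciliary radial spokes (0.56), the germ cell gene Dnd1 (0.44), the meiotic gene M1ap (0.45) and 3110057O12Rik (0.56) completed the set. KO and HET did not overlap for 18 of the 20 genes, which follows in part from choosing them by p.

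**Figure D5:**
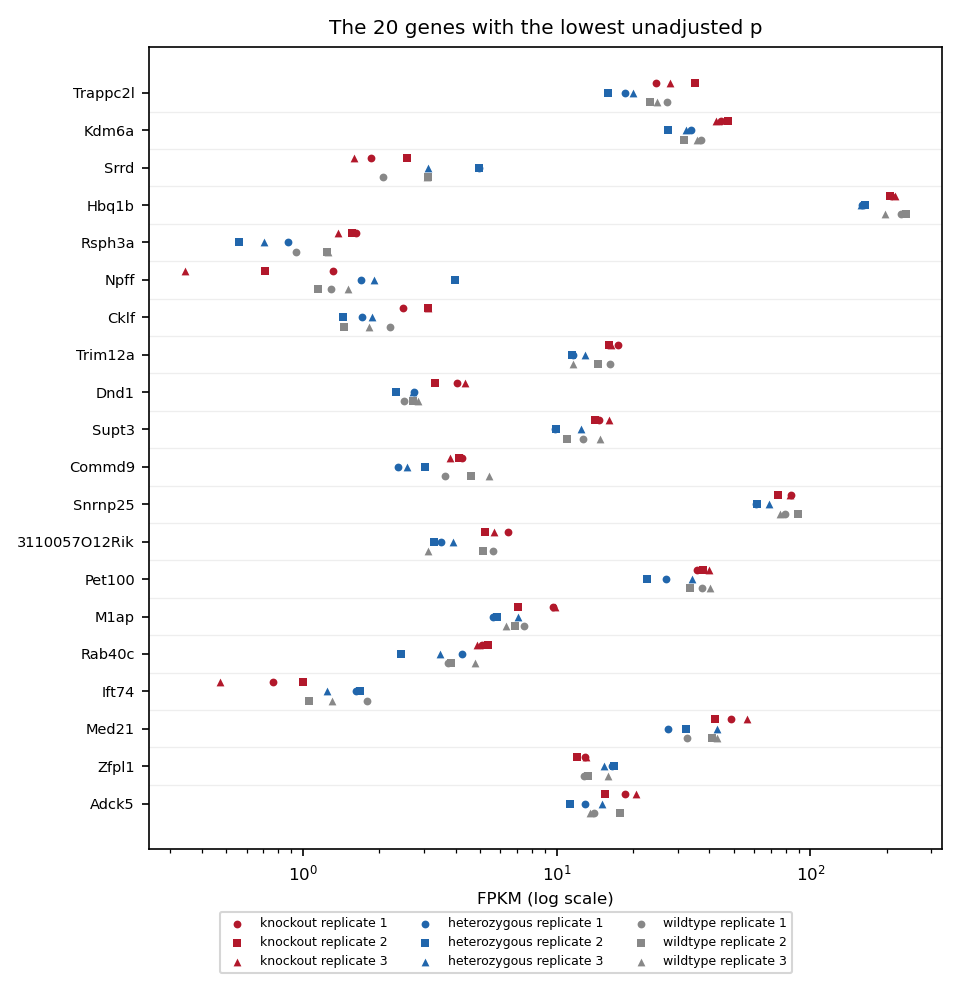
FPKM (log scale) of the 20 genes with the lowest unadjusted p, in KO libraries (red, upper row of each gene), HET libraries (blue, middle) and WT libraries (grey, lower), with the symbol giving the replicate number. KO lies to the right of HET for 16 genes and to the left for 4, as for Hbq1b at 206 to 216 against 158 to 164.

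Among genes with a mean of at least 5 FPKM whose groups did not overlap, KO was the higher group for 188 and the lower for 88. Without this cut on the mean the counts were 249 (2.61%) and 179 (1.88%) of the 9543 tested genes. The number of tested genes above the cut is not given here, so 188 and 88 only define the genes to choose from. The 10 largest differences upwards ran from 0.45 to 0.65. Besides Trappc2l, Kdm6a, Adck5 and Rtp4 they held Pink1, the kinase gene that starts the removal of damaged mitochondria, at 120, 128 and 152 FPKM in KO libraries, against 94.9, 78.1 and 103 in HET libraries (0.53 ± 0.21). Rpp21, a subunit of ribonuclease P, was at 44.1, 38.7 and 38.7 FPKM in KO libraries, against 36.5, 20.02 and 29.2 in HET libraries (0.53 ± 0.24). HET replicate 2 was the lowest library for both genes. Also among them were Sertad1 (0.54), a transcriptional coregulator gene, the RNA polymerase subunit gene Polr2k (0.52), and Rec114 (0.50), a gene of meiotic recombination. For Rec114, WT libraries were at 145, 113.5 and 78.6 FPKM, above the HET values of 56.4, 72.5 and 68.4. The WT values of Pink1, at 171, 133 and 97.7 FPKM, overlapped HET.

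The 10 largest differences downwards were smaller, between -0.47 and -0.33. Uck2, which encodes a kinase of pyrimidine salvage, was at 14.1, 12.3 and 10.6 FPKM in KO libraries, against 14.7, 20.1 and 17.7 in HET libraries. Rps6ka3, the gene of the kinase RSK2, was at 8.37, 8.76 and 8.23 FPKM in KO libraries, against 11.2, 13.1 and 10.6 in HET libraries. The gap between the groups was narrow for Uck2 and wider for Rps6ka3 (-0.47 ± 0.19 and -0.41 ± 0.15, SE). Fabp5, a fatty acid binding protein gene, was at 4.50, 4.43 and 4.29 FPKM in KO libraries, against 6.24, 6.18 and 5.41 in HET libraries (-0.36 ± 0.17). Zfpl1, Zpr1, Tom1, Drg2, Tmem43, Ppa2 and Plp2 made up the rest, between -0.39 and -0.33.

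Lists of red cell genes had small positive medians that turned negative in the pair of replicates 2. For the red cell membrane and skeleton, 24 of 26 tested genes were higher in KO, with a median of 0.08 and pair medians of 0.20, -0.19 and 0.23. For late erythroid maturation, 23 of 26 were higher, with pair medians of 0.31, -0.15 and 0.23. For heme synthesis, 14 of 16 were higher, and for erythroid transcription factors 18 of 27. In all 4 lists the pair of replicates 2 lay below 0 and the other pairs above it. Without KO replicate 2 the median was 0.19 for the red cell membrane (0.08 with it), 0.20 for heme synthesis (0.10), 0.14 for erythroid transcription factors (0.04) and 0.14 for late maturation (0.14). Without KO replicate 3 the medians of the first 3 of these lists lay between -0.005 and 0.005, and without HET replicate 1 that of late maturation was 0.04. Quantile normalization gave -0.02 for the membrane, 0.01 for heme synthesis, -0.03 for transcription factors and 0.04 for late maturation, and with globin genes left out transcription factors were at -0.04. In these 4 lists the groups did not overlap for 1 with KO higher, Tspo2, and 1 with KO lower, Ikzf1, against 2.61% and 1.88% of all tested genes. Tspo2, an erythroid member of the translocator protein family, was at 642, 595 and 712 FPKM in KO libraries, against 501, 507 and 524 in HET libraries (0.34 ± 0.13). Its WT values were 696, 642 and 545 FPKM, also above every HET value. Ikzf1, which encodes the transcription factor Ikaros, was at 31.4, 30.4 and 31.3 FPKM in KO libraries, against 32.0, 38.6 and 33.2 in HET libraries (-0.15 ± 0.12). Among 9 tested genes of the globin list the groups did not overlap for Hbq1b and Hbb-y, both with KO higher. Hbb-y, an embryonic beta-type globin gene, was at 3.09, 2.22 and 2.24 FPKM in KO libraries, against 1.12, 1.55 and 1.90 in HET libraries (0.48 ± 0.18).

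In the paired fit without the pair of replicates 2, which leaves 1 residual degree of freedom, 328 genes were called with KO higher (3.44%) and 413 with KO lower (4.33%). These included 15 of 26 late erythroid genes with KO higher and 18 of 22 macrophage genes with KO lower. Of 9 histone genes called in the paired fit without the pair of replicates 1, all were lower in KO, and that fit called 36 genes (0.377%), 9 of them neutrophil markers with KO higher. The paired fit without the pair of replicates 3 called 0 genes. Calls thus depended on which pair was left out, and these fits were chosen after the data were seen.

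Housekeeping lists showed small shifts that depended on the scaling and on single libraries. For cytosolic ribosomal proteins 66 of 81 tested genes were higher in KO and 34 were higher in all 3 pairs (42.0%), with a median of 0.07 that became -0.04 under quantile normalization and -0.01 with globin genes left out, and 0.01 without HET replicate 1. For the nuclear-encoded respiratory chain 49 of 59 were higher and 26 were higher in all 3 pairs (44.1%), with a median of 0.11 that became 0.02 and 0.03 under these scalings. For the proteasome 33 of 37 were higher, with a median of 0.10, or 0.01 under quantile normalization, 0.04 without KO replicate 3 and 0.05 without HET replicate 2. No member of the 3 lists was called. Rpl41, a ribosomal protein gene, was at 963, 1042 and 956 FPKM in KO libraries, against 808, 911 and 787 in HET libraries (0.24 ± 0.12). Uqcrh, a complex III subunit gene, was at 268, 285 and 275 FPKM in KO libraries, against 227, 251 and 231 in HET libraries (0.22 ± 0.11). WT values, at 1046, 1053 and 1248 FPKM for Rpl41 and 342, 285 and 337 for Uqcrh, were above HET values too. KO values were above HET values for both genes. Cox7b, a cytochrome oxidase subunit gene (0.30 ± 0.14), and Psma2, a proteasome subunit gene (0.20 ± 0.13), overlapped.

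Replication-dependent histone genes, whose transcripts lack poly(A) tails, varied widely between pairs. Of 40 tested genes 33 were lower in KO, with a median of -0.29, and pair medians were 0.48, -1.38 and -0.06. Summed FPKM of the listed histone genes were 435, 183 and 286 in KO libraries, against 343, 394 and 263 in HET libraries, so KO replicate 2 was the lowest library. The median was -0.01 without KO replicate 2, -0.03 without HET replicate 2 and 0.21 without both, so its direction rested on that pair. It was -0.53 without KO replicate 1 and -0.46 without HET replicate 3. Cell cycle lists had medians of -0.02 for G1/S and replication genes and 0.05 for G2/M genes, which averaged over pairs of opposite sign. The pair medians were 0.092, -0.242 and 0.105 for G1/S genes and 0.115, -0.189 and 0.255 for G2/M genes, and without KO replicate 2 the medians of the lists were 0.09 and 0.18. Under quantile normalization the median of G2/M genes was -0.03. For cholesterol synthesis, 16 of 23 tested genes were lower, with a median of -0.09. Bik, a gene of a pro-apoptotic protein, was at 0.546, 0.112 and 0.163 FPKM in KO libraries, against 2.68, 1.16 and 0.695 in HET libraries (-0.92 ± 0.38). Its groups did not overlap, but its level was near the filter.

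On chromosome 15, which carries Dhh, several genes within a few megabases varied strongly between libraries of one genotype. Mettl7a3 (100334929 to 100340375), a methyltransferase-like gene with close paralogs that can share its reads, was at 1.83, 1.98 and 3.24 FPKM in KO libraries, against 2.10, 0.759 and 0.0453 in HET libraries and 0 in all WT libraries. Tuba1a (98949837 to 98953703), an alpha tubulin gene, was at 10.8, 17.8 and 14.9 FPKM in KO libraries, against 15.02, 11.5 and 5.19 in HET libraries. Cela1 (100674421 to 100687921), an elastase-like protease gene, was at 12.8, 12.2 and 3.34 FPKM in KO libraries, against 6.00, 13.3 and 29.7 in HET libraries. HET replicate 3 was at an extreme of the 6 libraries for all 3 genes, and HET replicate 1 lay within the range of KO for each. Mettl7a3, Tuba1a and Cela1 were named after their values were seen. Npff (102523839 to 102524942), described above among the genes with the lowest unadjusted p, also lies on chromosome 15. Its KO and HET values did not overlap, with KO lower (log2 difference -0.96 ± 0.28, SE, limma adjusted p 0.9996). Its WT values, at 1.29, 1.14 and 1.51 FPKM, overlapped KO and lay below every HET value. The part of its position on this chromosome in the difference was not tested.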

How the data were processed

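RNA sequencing of 9 spleen erythroblast libraries was analysed, with 3 per genotype. The authors deposited 1 table of FPKM values for 20368 genes. Per the submitters' processing notes, the build was mm10 and the tools were TopHat, Picard and DESeq2, with no role or version stated. The sources used here give no strandedness, read pairing or annotation. FPKM and RPKM thus cannot be distinguished, and overlapping, antisense or near-identical genes can share reads. The deposited FPKM were whole multiples of 1 read's worth (tolerance 0.05 read) for each of the 14147 genes seen in at least 2 libraries. For genes above 0 in few libraries such a step can always be found. The result is thus informative only for genes seen in nearly all libraries. The steps give library factors equal to median-of-ratios factors over 11276 genes, so values were scaled by size factors. Recovered reads were 7.05 to 14.23 M (units of 1e6) in each library. A gene listed at 0 had no recovered read. An expected count of up to 3 reads can still give 0 by counting error alone. GENCODE M21 on the same build matched 20092 rows (98.6%), restored 26 symbols that had turned into dates and gave positions.

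Values were analysed as log2(FPKM + 1), which understates changes of low genes. Limma 3.58.1 (R 4.3.3; lmFit, eBayes with a trend) estimated 1 mean for each genotype from the 9 libraries, and KO minus HET was tested two-sided with Benjamini-Hochberg adjustment. Errors printed with ± are standard errors of that difference. Self-tests on simulated data were run. Python 3.11.15, numpy 2.4.6, pandas 2.3.3, scipy 1.17.1 and matplotlib 3.10.9 were used for the rest. The genes and lists were chosen with earlier results of these data known. Named genes were the tested Hedgehog genes, the 20 lowest unadjusted p, the 10 largest differences in each direction among genes with a mean of at least 5 FPKM and no overlap, the most abundant and the 2 lowest-p members of lists, and fixed erythroid genes. Some genes that the rule names are not reported here. Genes outside this rule were chosen after their values were seen: Camp, Ngp, Ltf, S100a8, Lcn2, Elane, Mpo, Csf3r, Cxcr2, Isg15, Irf7, Usp18, Oasl2, Zbp1, Cd79a, Ms4a1, C1qa, Mettl7a3, Eif2s3y, Ddx3y, Klhl7, Apobec3, Tuba1a, Cela1, Ikzf1, Uty and Kdm5d.

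The labels number the replicates but state no common litter or day. Deviations from the group means of KO and HET libraries with the same number correlated at 0.197, 0.183 and 0.407, each over 0.1. On this criterion same-numbered libraries were treated as pairs. The paired fit used the 6 libraries with the replicate number as a block. In all, 27 alternatives were planned and 3 added after seeing the data.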

Additional observations from a re-analysis of the deposited data

How the results depend on the processing

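Genes called numbered 0 in every alternative other than the fits of 2 pairs named here. The unadjusted count of 56 genes became 207 with no filter, 32 with a stricter filter, 111 with only the 6 KO and HET libraries, 106 with a depth term, 240 with leukocyte markers as a covariate, 1580 with library quality weights (whose estimation did not converge), 143 without both replicates 2, 53 with voom on recovered reads, and 29 to 499 with 1 library left out. With the replicate block it was 251, and the block changed no call. In the block fits of 2 pairs, added after seeing the data, genes called and unadjusted counts were 36 and 179 without the replicate 1 pair, 741 and 2351 without the replicate 2 pair, and 0 and 107 without the replicate 3 pair. The 428 genes without overlap became 823 to 3780 with 1 library left out, where fewer libraries make overlap rarer.

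Under quantile normalization the median was -0.041 for ribosomal, 0.022 for respiratory chain and 0.009 for proteasome genes. With globin genes left out it was -0.009 for ribosomal and 0.031 for respiratory chain genes. Differences turned sign under quantile normalization for Gata1 (-0.036), Hba-a1 (-0.014), Alas2 (0.0) and Cxcr2 (0.063), with globin genes left out for Gata1 (-0.001) and Slc4a1 (-0.007), and with a depth term for Cxcr2 (0.0). With quality weights they did so for Hba-a1 (-0.010), Alas2 (-0.031), Kit (-0.081) and Ddx3y (0.012). Without both replicates 2, with or without the block, they did so for Kit (-0.081), Eif2s3y (0.21) and Ddx3y (0.259). In the block without the replicate 1 pair they did so for Hba-a1 (-0.018) and Kit (-0.113), and without the replicate 3 pair for Hba-a1 (-0.033), Slc4a1 (-0.029) and Cxcr2 (0.246). With 1 library left out, differences that crossed 0 ranged from -0.005 to 0.22 for Gata1, -0.056 to 0.324 for Tfrc, -0.167 to 0.428 for Hba-a1, -0.131 to 0.49 for Hbb-bs, -0.237 to 0.545 for Alas2, -0.225 to 0.203 for Kit, -0.028 to 1.529 for Mpo, -0.518 to 0.142 for Csf3r, -0.267 to 0.2 for Cxcr2, -2.41 to 0.296 for Eif2s3y, -1.884 to 0.262 for Ddx3y and -0.092 to 2.299 for Klhl7. The cause of these changes was not tested. Values near 1 FPKM rest on few reads, and each group had 3 libraries.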
